A study of Bos taurus with 92 samples.

Results

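The subject is what separated cloned bovine blastocysts from fertilised ones, whichever way the latter were made. Transcript levels had been measured in single blastocysts on a custom 2-colour cDNA microarray. The members were the 15 embryos labelled NT (nuclear transfer), of 46 samples in all, and they were set against 29 fertilised embryos, 14 from artificial insemination (AI) and 15 from fertilisation in vitro (IVF), with both kinds weighted equally. The labels also name 2 samples of the donor cells for nuclear transfer, numbered 8 and 9. They give no breed, age, culture medium, hybridisation date or tissue of the donor cells, and no genetic change in any group. NT embryos carry labels beginning with 2_ (8 embryos) or 3_ (7 embryos), and 3 AI embryos carry labels beginning with H, without explanation. Whether the NT embryos came from 1 donor culture or several is not stated, so p-values measure the spread between these embryos.

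In nuclear transfer the nucleus of a somatic cell is placed in an oocyte whose own chromosomes have been removed, and the oocyte cytoplasm has to reset the somatic pattern of transcription to an embryonic one. A blastocyst holds an outer trophectoderm, which later contributes to the placenta, and an inner cell mass. The series title names nuclear reprogramming, and the question here was which transcripts of cloned embryos lay beyond both kinds of fertilised embryo, and where the donor cells stood for them.

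Levels are log2 ratios of a sample to a common reference RNA, centred on the median of each array, and were averaged over the array with the sample in Cy5 and the array with it in Cy3. A level of one gene cannot be set against that of another. The labels do not state which dye is on top of the ratio. It was read as Cy5 over Cy3, which is likely rather than certain. The opposite reading would turn the sign of every level and difference, so that each gene called higher would be lower and the reverse, with the same sizes and p-values. The 2 arrays of each sample correlated negatively as deposited (r from -0.743 to -0.301), as opposite dye orientations do. With this reading, 17 of 30 fibroblast and matrix genes were higher and 2 lower in donor cells than in fertilised embryos, and 20 of 36 trophectoderm genes were lower and 2 higher (background 16.4% of 4398 genes higher and 19.6% lower). Both lists were chosen with earlier results of these data known. The mesenchymal filament gene VIM had levels of -0.12 and 0.057 in the donor cells and -5.05 to -4.13 in NT embryos. The epithelial keratin KRT18 had -3.10 and -2.91 in donor cells and 0.91 to 2.57 in NT embryos. For these 2 genes donor cells and NT embryos did not overlap. A short list of pluripotency and inner cell mass genes (KLF4, SALL4, STAT3 and SPP1) did not go the way of embryo markers, as 3 of the 4 were higher in donor cells and 0 lower, with list means of 1.16 and 1.49 in donor cells and -0.572 to 0.33 in NT embryos. Their 2 arrays agreed less well than those of embryos (r as deposited -0.354 and -0.301, against -0.699 to -0.628 in NT). In correlation with the mean of the others of their kind, IVF embryos 11 (r = 0.764) and 1 (r = 0.790) were lowest, and no NT embryo stood apart.

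NT embryos were shifted as a whole before centring. The mean array median, after turning all arrays to sample over reference, was 0.108 in NT, -0.305 in AI and -0.274 in IVF embryos. All directions below are therefore directions against the median of an array. In the deposited scaling the median gene lay 0.42 higher in NT than in fertilised embryos, against 0.020 after centring. Whether the shift is in transcripts or in amplification and labelling was not tested.

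NT embryos differed in 569 of 4398 genes (12.9%) from the equal-weight mean of AI and IVF embryos, 316 higher (7.19%) and 253 lower (5.75%; limma, Benjamini-Hochberg adjusted p under 0.05). NT lay beyond both fertilised means in 534 of them and between the means in 35. In 92 genes (2.09%) the differences from AI and from IVF each passed the threshold as well, in the same direction. Of these, 46 were higher (1.05%) and 46 lower (1.05%) in NT. The other 442 lacked the test against AI, IVF or both. NT alone differed from AI in 355 genes (8.07%) and from IVF in 1066 (24.2%), while IVF and AI embryos differed from each other in 1299 (29.5%). Both NT comparisons use the same 15 NT embryos, so their agreement over genes is not a separate result.

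Uncentred, with arrays as deposited, the split turned to 2372 higher and 12 lower, and to 975 higher and 1 lower for genes beyond both kinds, with 47 of the 92 kept. The sample in Cy5 alone gave 187 higher and 241 lower, with 36 higher and 63 lower beyond both. The sample in Cy3 alone gave 218 higher and 111 lower, with 41 higher and 13 lower beyond both. With the label series as a random block, 367 genes passed and 46 lay beyond both, 22 higher and 24 lower. Genes beyond both kinds numbered 97 after quantile normalisation and 102 after arrays were given 1 median absolute deviation.

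Of the 92 genes, 7 lay at least 2-fold from both AI and IVF means, 6 higher and 1 lower. The smaller of a gene's 2 distances had a median of 0.52 and ran from 0.21 to 1.91 on the log2 scale. No gene of the 4398 (0%) had all NT embryos outside the range of all fertilised ones, so these are shifts of overlapping distributions. At least 11 NT embryos lay beyond both means in each of the 92 genes, and all NT embryos with a value did in 19. The order of the levels in 76 of the 92 has AI and IVF as neighbours that did not pass the test against each other, and in 16 all 3 kinds of embryo differed.

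**Figure D1:**
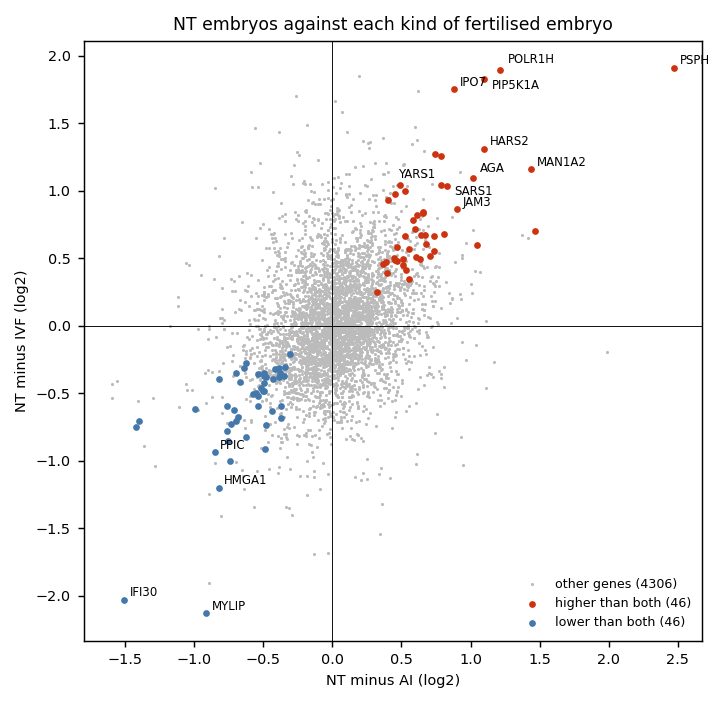
Each point is a gene, placed by the difference of NT from AI embryos (x axis, log2) and from IVF embryos (y axis, log2), with the 46 genes higher and the 46 lower than both in colour. Both axes share the NT embryos, so the slope of the cloud is no result. PSPH lies farthest out on the upper right, and IFI30 on the lower left.

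The pattern could be followed embryo by embryo. A single NT embryo lay beyond both means, in the direction of the NT mean, in 77 to 92 of the 92 genes (median 84). AI embryos did so in 32 to 53 (median 39) and IVF embryos in 25 to 49 (median 37). These counts describe the genes on the embryos that chose them. Donor cell sample 8 did so in 56 genes (60.9%) and sample 9 in 52 (56.5%), against 51.3% and 51.2% of the 2554 genes whose NT mean lay beyond both fertilised means. Donor cells entered the fit of the variances, and without them 96 genes were beyond both. The median SD within groups over the 92 genes was 0.388 in NT, 0.427 in AI and 0.394 in IVF embryos.

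**Figure D2:**
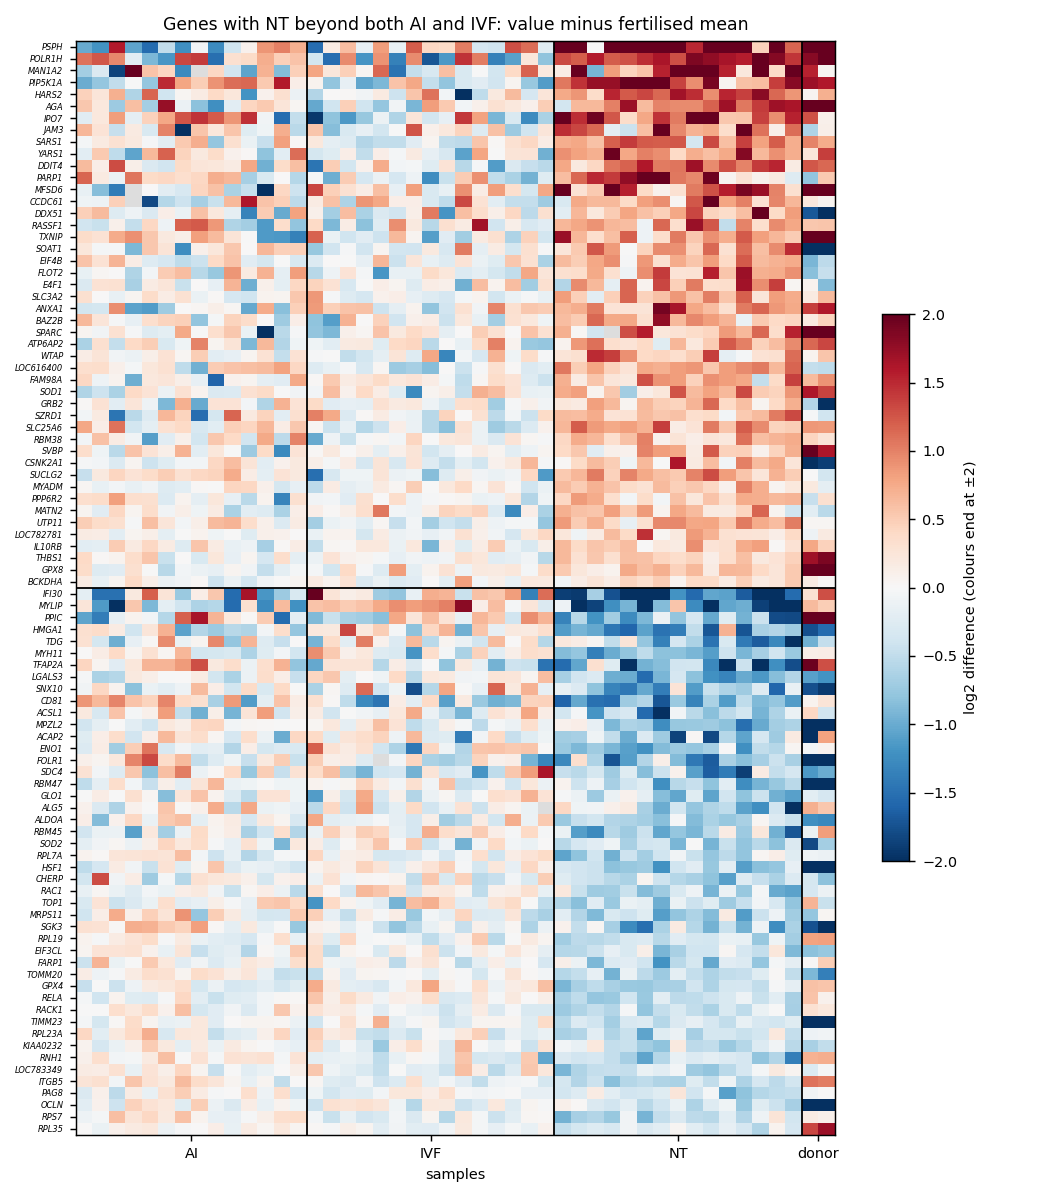
Rows are the 92 genes, 46 higher (top) and 46 lower (bottom) in NT than in both AI and IVF embryos, and columns are the 46 samples. Colour is the log2 level minus the mean of AI and IVF, with colours ending at ±2 and grey for missing values. The NT columns are mostly red above and mostly blue below, and the donor cell columns are mixed. In 14 of the 15 NT embryos some genes did not lie beyond both fertilised means, which the colour alone does not show.

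Which of the 92 keep the call under other processing was asked next. After quantile normalisation, with 1 median absolute deviation for all arrays and with either dye orientation alone, 17 genes stayed beyond both kinds of fertilised embryo. Of these, 11 were higher in NT (PSPH, POLR1H, MAN1A2, PIP5K1A, HARS2, AGA, SARS1, YARS1, DDIT4, SLC3A2 and MYADM) and 6 were lower (IFI30, LGALS3, MYH11, CD81, SNX10 and ALDOA). Arrays as deposited, where the shift of the median gene stays in, kept all 46 of the higher genes and 1 of the 46 lower ones, IFI30. Centring takes that shift out, and which scaling is nearer to the transcript levels was not tested. Over the 17 settings other than arrays as deposited, 7 genes kept the call, the rises of PSPH, HARS2, SARS1 and SLC3A2 and the falls of IFI30, LGALS3 and MYH11. With the label series as a random block, 46 of the 92 genes lost it. Among those described below these were IPO7, JAM3, PARP1, MYLIP, PPIC, TDG, SNX10, ACSL1, RPS7, RPL23A, EIF3CL, ENO1, GPX4, TXNIP, RBM38, RBM45, DDX51, SLC25A6, PAG8, OCLN, SPARC, ANXA1, ATP6AP2 and IL10RB.

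PSPH encodes phosphoserine phosphatase, which completes the synthesis of serine. Its level was -3.81 to -0.70 in AI embryos (median -2.73), -3.80 to -1.0 in IVF (median -1.90) and -2.29 to 1.76 in NT (median -0.057). Of the 15 NT embryos 14 lay above both fertilised means, and the ranges overlapped at the lower end of NT. PSPH was higher in NT by 2.19 ± 0.29 (SE; 4.57-fold, adjusted p = 2.78e-06), by 2.47 ± 0.34 against AI and by 1.91 ± 0.33 against IVF. Donor cell samples 8 and 9 stood at 0.22 and 0.34, near the NT median and above every fertilised embryo.

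SLC3A2, the heavy chain of an amino acid exchanger of the plasma membrane, ran from -0.41 to 0.53 in AI embryos (median 0.052), -0.38 to 0.87 in IVF (median -0.14) and -0.21 to 1.20 in NT (median 0.59). It rose by 0.66 ± 0.10 (1.58-fold, adjusted p = 3.27e-05). All but 1 of the NT embryos were above both fertilised means. The donor cells had 0.17 and 0.63, within the NT range. DDIT4, an inhibitor of mTORC1 signalling that is induced in stress and starvation, had medians of -1.24 in AI (-2.44 to -0.17), -1.72 in IVF (-2.94 to -0.73) and -0.41 in NT embryos (-1.32 to 0.22). It rose by 1.02 ± 0.16 (2.03-fold, adjusted p = 3.81e-05), and the donor cells, at -0.24 and -0.33, were just above the NT median. In NT embryos labelled 2_ alone, DDIT4 lost a call.

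A wider list of the amino acid response and serine synthesis, the genes that the transcription factor ATF4 is known to govern among them, had 15 measured members. Of these 6 rose (40%) and 0 fell (all genes 7.19% and 5.75%), and 3 were beyond both kinds of fertilised embryo (20%, against 2.09%). The list median was 0.27 against 0.020 for all genes, and it was 0.59 against AI but 0.14 against IVF embryos. Besides PSPH, DDIT4 and SLC3A2, ATF4 itself rose, as did the mitochondrial one-carbon enzymes SHMT2 and MTHFD1L, without lying beyond both. The 9 others had differences from -0.074 to 0.38. Without centring 13 of the 15 rose, with a median of 0.67, where 53.9% of all genes rose, and with the sample in Cy5 alone 5 rose and 0 fell. With the 2_ embryos alone 3 rose and 2 were beyond both, and with the 3_ embryos alone 6 and 3. This list was also in an earlier reading of the same arrays and its direction is not independent evidence.

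Aminoacyl-tRNA synthetases join amino acids to their tRNAs. HARS2, the mitochondrial histidine enzyme, had levels of -1.66 to 0.70 in AI embryos (median -0.27), -3.01 to 0.62 in IVF (median -0.46) and -0.098 to 1.34 in NT (median 0.76). All 15 NT embryos were above both fertilised means, and the rise was 1.20 ± 0.19 (2.30-fold, adjusted p = 3.27e-05). SARS1, the cytosolic serine enzyme, had medians of -0.74 in AI (-1.62 to -0.031), -1.02 in IVF (-1.43 to -0.30) and 0.35 in NT embryos (-1.20 to 0.56). The lower NT embryos overlapped the AI range, and 14 of 15 lay above both means. SARS1 rose by 0.94 ± 0.13 (1.91-fold, adjusted p = 1.19e-05), and YARS1, the tyrosine enzyme, by 0.92 ± 0.17 (1.89-fold, adjusted p = 0.000187).

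The family did not move as one. Of 15 measured synthetases and scaffold proteins 3 rose (20%), all of them beyond both kinds of fertilised embryo, and 3 fell (20%; all genes 7.19% and 5.75%), with a median of 0.084. The mitochondrial isoleucine enzyme IARS2 (-0.34 ± 0.12), the lysine enzyme KARS1 (-0.47 ± 0.10) and the scaffold protein AIMP2 (-0.48 ± 0.13) were the ones that fell, none beyond both. With the sample in Cy3 alone 1 fell, and with the 3_ embryos alone 0 fell. Without centring 10 rose and 0 fell, where 53.9% of all genes rose.

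**Figure D3:**
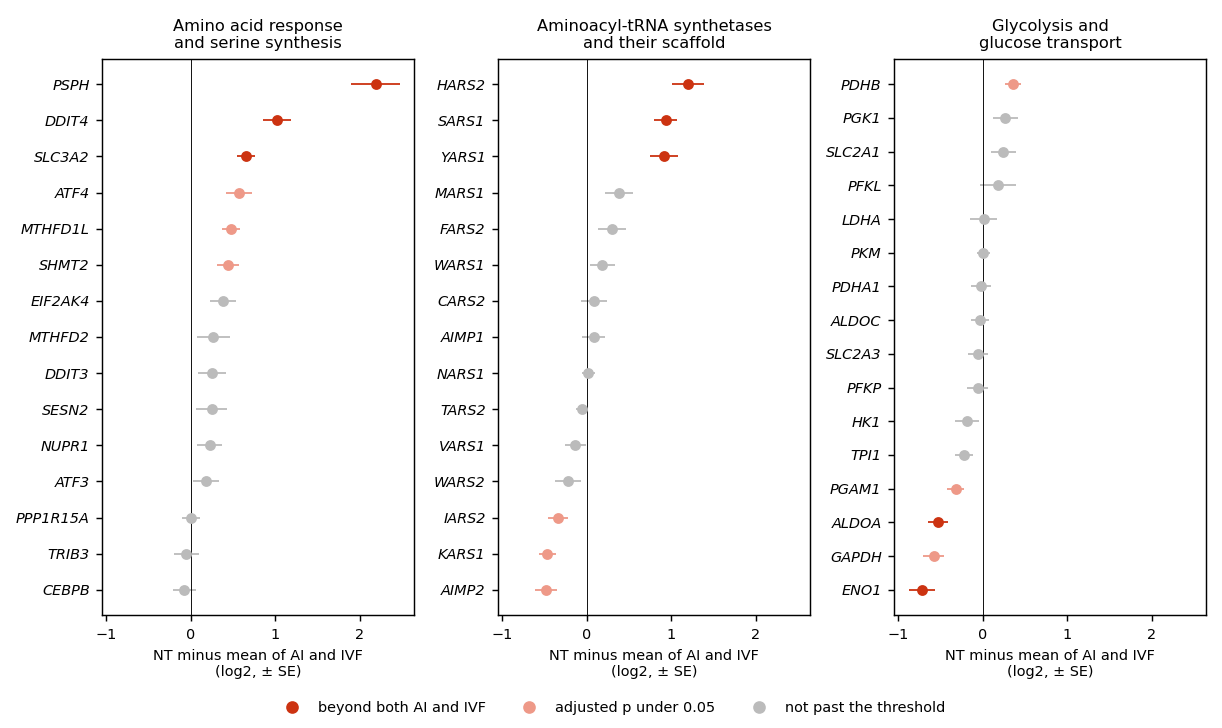
Differences of NT from the mean of AI and IVF embryos (log2, ± SE) for each measured gene of 3 lists, with genes beyond both fertilised groups in dark red, other genes past the adjusted threshold in light red and the rest in grey. PSPH, HARS2, SARS1, YARS1, DDIT4 and SLC3A2 are the dark points on the right, and ENO1 and ALDOA those on the left of the glycolysis panel. With arrays as deposited 7 genes of that panel rose and 0 fell. ENO1 and ALDOA kept their sign there but were no longer beyond both.

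POLR1H, a small subunit of RNA polymerase I, which transcribes ribosomal RNA, varied little among NT embryos. It spanned 0.68 to 1.62 (median 1.04) there, against -2.05 to 0.87 in AI (median -0.0080) and -2.24 to 0.91 in IVF embryos (median -1.33). The SD was 0.28 in NT, 0.95 in AI and 1.12 in IVF embryos, whose values reached far below the NT range. The rise was 1.55 ± 0.26 (2.94-fold, adjusted p = 7.29e-05), and the donor cells stood at 1.29 and 1.66. The list of RNA polymerase subunits and general transcription factors, 44 genes, had 3 that rose (6.82%) and 1 that fell (2.27%), near or below the shares of all genes, 7.19% and 5.75%. POLR1H was the single one beyond both (2.27%, against 2.09%).

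PIP5K1A, a kinase that makes the membrane lipid phosphatidylinositol bisphosphate, ran from -2.81 to -0.23 in AI (median -1.31), -2.94 to -1.05 in IVF (median -2.20) and -1.77 to 1.12 in NT embryos (median -0.38). It rose by 1.46 ± 0.22 (2.76-fold, adjusted p = 2.21e-05). Donor cells, at -0.11 and -0.21, lay above every fertilised embryo. AGA, a lysosomal enzyme that breaks down glycoproteins, had medians of 0.23 in AI, 0.20 in IVF and 1.11 in NT embryos, and 3.03 and 2.89 in the donor cells. Its rise of 1.06 ± 0.19 (2.08-fold, adjusted p = 0.000179) left NT embryos, at -0.26 to 1.81, below both donor samples.

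MAN1A2, a Golgi mannosidase that trims N-glycans, rose by 1.30 ± 0.30 (2.46-fold, adjusted p = 0.00282, 15 NT embryos against 13 AI and 15 IVF with a value). NT embryos ranged from -1.18 to 2.47 and AI embryos reached 1.74. The donor cells disagreed, at 1.29 and -0.19. MYADM, a membrane protein of lipid rafts, had the smallest change of the 17, 0.48 ± 0.087 (1.40-fold, adjusted p = 0.000174), with NT embryos at 0.25 to 1.21 and donor cells at 0.39 and 0.015. MYADM was chosen for mention after its values were seen. AGA, MAN1A2 and POLR1H lost a call with the NT embryos labelled 2_ alone, PIP5K1A and YARS1 with those labelled 3_ alone, and MYADM with 1 probe per gene.

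IFI30, a lysosomal thiol reductase that unfolds proteins for antigen presentation, was the single gene at least 2-fold lower than both fertilised groups. Levels were -0.60 to 2.60 in AI (median 0.71), -0.40 to 3.30 in IVF (median 1.21) and -2.10 to 0.28 in NT embryos (median -0.79). All 15 NT embryos were below both means, and the fall was -1.77 ± 0.26 (3.40-fold lower, adjusted p = 1.55e-05). The donor cells stood at 1.26 and 2.24, on the far side of the fertilised mean but within the AI and IVF ranges. They passed against NT (2.56 ± 0.62, limma, adjusted p = 0.000778) and not against fertilised embryos (0.80 ± 0.60, adjusted p = 0.327). Of 36 genes of the lysosome and antigen presentation 5 rose and 5 fell (13.9% each, all genes 7.19% and 5.75%), and the 1 beyond both, IFI30, is a share of 2.78%, near the 2.09% of all genes.

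**Figure D4:**
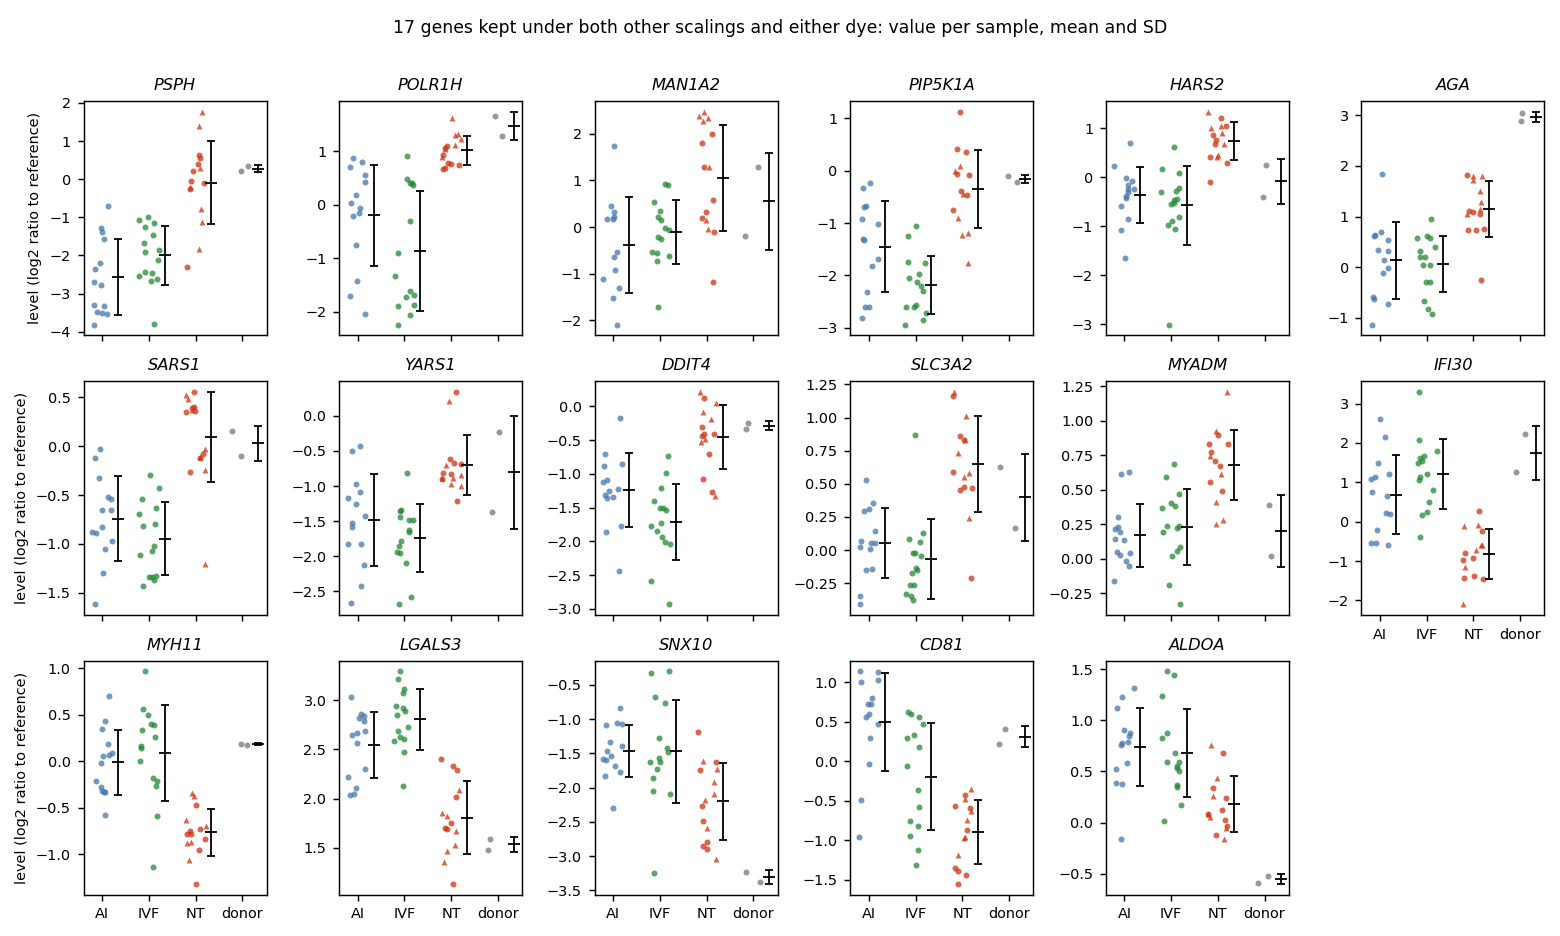
Levels (log2 ratio to reference, y axis) of the 17 genes kept under both other scalings and either dye in each AI, IVF and NT embryo and donor cell sample, with the group mean and SD in black and NT embryos labelled 3_ as triangles. The NT mean is above the fertilised means in 11 genes and below them in 6, and ranges overlap in every panel.

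The other large rises were in genes that lost a call under another scaling or dye orientation. IPO7, a nuclear import receptor, rose by 1.32 ± 0.24 (adjusted p = 0.000174) and PARP1, which adds ADP-ribose chains at DNA breaks, by 1.01 ± 0.21 (adjusted p = 0.000816). Both were no longer beyond both kinds after quantile normalisation. JAM3, a junctional adhesion molecule, rose by 0.88 ± 0.23 (adjusted p = 0.00838) and lost a call with either dye orientation alone. Smaller rises beyond both were seen for EIF4B, a helper of the translation initiation helicase (0.66 ± 0.12), the RNA helicase DDX51 (0.67 ± 0.18), the p53-induced RNA-binding protein RBM38 (0.52 ± 0.13) and the mitochondrial ADP/ATP carrier SLC25A6 (0.77 ± 0.12). SLC25A6 was lost with the sample in Cy3 alone and EIF4B with the sample in Cy5 alone.

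Of the 46 genes lower than both, IFI30 was the single one kept with arrays as deposited, so that each fall that follows is relative to the array median. MYLIP, a ubiquitin ligase for the LDL receptor, fell by 1.52 ± 0.25 on the log2 scale (adjusted p = 7.29e-05), and levels differed among all 3 kinds, with -3.00 ± 1.05 (SD) in NT, -2.09 ± 0.88 in AI and -0.87 ± 0.50 in IVF embryos. TFAP2A, an AP-2 family transcription factor that works in trophectoderm, fell by 1.08 ± 0.19 (adjusted p = 0.00015), from medians of 0.59 in AI and -0.047 in IVF to -0.80 in NT embryos. HMGA1, an architectural chromatin protein, fell by 1.01 ± 0.18 (adjusted p = 0.000128). TDG, a DNA glycosylase that acts in DNA demethylation, fell by 0.77 ± 0.20 (adjusted p = 0.00829). MYLIP, HMGA1 and TDG lost a call with the sample in Cy3 alone, and TFAP2A with the sample in Cy5 alone. MYLIP also lost it without the AI embryos labelled H and with the 2_ embryos alone.

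The falls of LGALS3, a galactose-binding lectin, and MYH11, a myosin heavy chain, were found in every NT embryo. LGALS3 stood at 1.13 to 2.40 in NT (median 1.76), 2.04 to 3.03 in AI (median 2.66) and 2.12 to 3.29 in IVF embryos (median 2.85), with all 15 NT embryos below both means. It fell by 0.87 ± 0.11 (adjusted p = 1.31e-06) and MYH11 by 0.80 ± 0.12 (adjusted p = 2.46e-05). Both kept their place beyond both kinds under all settings run other than arrays as deposited. CD81, a tetraspanin, fell by 1.05 ± 0.18, MPZL2, an epithelial adhesion protein, by 0.68 ± 0.11, PPIC, a prolyl isomerase, by 0.89 ± 0.21, and SNX10, an endosomal sorting nexin, by 0.73 ± 0.18. MPZL2 and PPIC lost a call with the sample in Cy3 alone, CD81 with the 3_ embryos alone and SNX10 with 1 probe per gene.

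Trophectoderm and trophoblast genes had 36 measured members, of which 10 fell (27.8%, all genes 5.75%) and 1 rose (2.78%, all genes 7.19%), with a median of -0.13. Fewer fell with the sample in Cy5 alone (5), with the 2_ embryos alone (3) and with the 3_ embryos alone (5). TFAP2A, the tight junction protein OCLN (-0.32 ± 0.093) and the pregnancy-associated glycoprotein PAG8 (-0.35 ± 0.093) were the 3 beyond both, and OCLN and PAG8 lost this with the label series as a random block. Of the 3, only OCLN was lower in donor cells than in fertilised embryos (-6.06 ± 0.21). TFAP2A was higher there (1.63 ± 0.44) and PAG8 did not pass (-0.033 ± 0.21), so these 2 did not mark embryos against donor cells. The trophoblast Kunitz protein TKDP1 (-1.11 ± 0.31), the desmosomal cadherin DSC2 (-1.07 ± 0.26), the steroid enzyme HSD3B1 (-0.84 ± 0.27) and the keratin KRT19 (-0.53 ± 0.13) also fell, and ATP1B3, a beta subunit of the sodium pump, rose (0.42 ± 0.11). KRT18 differed by -0.15 ± 0.14 and did not pass (adjusted p = 0.518). The mean level of the list was 0.823 to 1.47 in NT (median 1.20), 1.05 to 1.72 in AI (median 1.34) and 1.16 to 1.66 in IVF embryos (median 1.41), with wide overlap. In whole embryos, fewer cells of a type and less RNA per cell cannot be told apart. Uncentred, 14 rose (38.9%, against 53.9% of all genes) and 2 fell, with a median of 0.26, and OCLN and PAG8 turned in sign.

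Ribosomal protein genes, 45 measured, had 13 that fell (28.9%, all genes 5.75%) and 1 that rose, RPL7L1 (2.22%, all genes 7.19%), with a median of -0.20. With the sample in Cy3 alone 4 fell, and with the 3_ embryos alone 5. RPL7A (-0.49 ± 0.11), RPS7 (-0.45 ± 0.091), RPL23A (-0.42 ± 0.11), RPL19 (-0.41 ± 0.084) and RPL35 (-0.26 ± 0.060) were beyond both. The list median was -0.40 against AI and -0.045 against IVF embryos, so the larger distance was from AI. Ribosomal protein genes have many near-identical processed copies, and which copy a cDNA probe binds cannot be told. Uncentred, 14 rose (31.1%, against 53.9% of all genes) and 0 fell.

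Oxidative phosphorylation had 8 genes that rose (16.7%) and 2 that fell (4.17%) of 48 (all genes 7.19% and 5.75%), and 0 beyond both, where 2.09% of all genes were. With the 2_ embryos alone 2 rose. Its list median was -0.13 against AI and 0.44 against IVF embryos, so the list stood lower than in AI and higher than in IVF embryos. In glycolysis and glucose transport 4 of 16 genes fell (25%) and 1 rose (6.25%), and with the 3_ embryos alone 0 passed. ENO1 (-0.72 ± 0.16) and ALDOA (-0.53 ± 0.12) fell beyond both, GAPDH and PGAM1 fell as well and PDHB, of the pyruvate dehydrogenase, rose. Of 9 cholesterol and lipid genes 4 fell (44.4%, all genes 5.75%) and 0 rose, the sterol enzymes MSMO1 (-0.95 ± 0.29), FDPS (-0.88 ± 0.21) and LSS (-0.72 ± 0.20), and ACSL1, a fatty acid CoA ligase (-0.70 ± 0.18), beyond both. With the 2_ or the 3_ embryos alone 1 of them fell. The median of the 9 genes was -0.18 against AI and -0.65 against IVF embryos, so the larger distance was from IVF. Uncentred, 7 glycolysis genes rose and 0 fell, and 0 cholesterol genes passed either way.

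Redox genes split, with 7 that rose (25.9%) and 5 that fell (18.5%) of 27 (all genes 7.19% and 5.75%). With the 2_ embryos alone 3 rose and 3 fell, and with the 3_ embryos alone 3 rose and 1 fell. TXNIP, an inhibitor of thioredoxin (0.75 ± 0.18), cytosolic superoxide dismutase SOD1 (0.55 ± 0.14) and the endoplasmic reticulum peroxidase GPX8 (0.45 ± 0.091) rose beyond both. Mitochondrial SOD2 (-0.49 ± 0.11) and the lipid peroxidase GPX4 (-0.53 ± 0.093) fell beyond both. TXNIP was lost after quantile normalisation, SOD1 and GPX8 with the sample in Cy5 alone, and SOD2 and GPX4 with the sample in Cy3 alone. HSF1, the heat shock transcription factor, fell by 0.61 ± 0.096 (adjusted p = 3.28e-05), while the 44 heat shock and folding genes had 4 that rose and 4 that fell (9.09% each). HSF1 lost a call with the sample in Cy3 alone.

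Some genes that bear on resetting of the genome differed from only one kind of fertilised embryo or none. The de novo methyltransferase DNMT3A was 3.04 ± 0.50 (SD) in AI, 1.48 ± 0.56 in IVF and 2.50 ± 0.78 in NT embryos, so NT lay between (contrast 0.24 ± 0.20 SE, adjusted p = 0.439). The histone deacetylase HDAC1 was 1.54 in NT, 1.60 in AI and 1.15 in IVF embryos. The imprinted RNA H19 rose by 0.42 ± 0.11 (adjusted p = 0.00788) and passed against AI (0.54 ± 0.13) but not against IVF (0.29 ± 0.12, adjusted p = 0.0772). IGF2R, an imprinted growth factor receptor, differed by -0.25 ± 0.11 (adjusted p = 0.114). CASP6, an executioner caspase, was 3.06 in AI but 1.88 in both IVF and NT embryos. Of 47 chromatin modifiers 6 rose (12.8%) and 3 fell (6.38%), and HMGA1 was the one beyond both (2.13%, near the 2.09% of all genes). Of 10 histone genes 3 rose (30%, all genes 7.19%) and 0 fell, none beyond both. Among the rises were the variants H2AZ1 (0.49 ± 0.083) and H3-3A (0.59 ± 0.13). The median of the histone list was -0.032 against AI and 0.36 against IVF embryos.

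The level in the donor cells was set beside each of the 92 genes. Donor cells differed from the fertilised mean in 1580 of 4398 genes (35.9%) and from NT embryos in 1558 (35.4%). Among the 92, donor cells differed from the fertilised mean in the direction of NT in 31 genes (33.7%), in the opposite direction in 12 (13%) and did not pass in 49. Over all 4398 genes 19% differed in the direction of NT and 17% in the opposite one. Without donor cell sample 8 or sample 9 the 31 became 23 in each case. The transfer and donor comparisons share the fertilised embryos, whose own deviations move both differences the same way, so the higher share is a description.

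The donor mean lay beyond NT in 34 of the 92 genes, between the fertilised mean and NT in 24, and on the other side of the fertilised mean in 34. Over all genes these shares were 42.9%, 10.8% and 46.3%. Genes chosen for a shift of NT have a wider span up to NT, which largely sets their larger share between. Of the genes beyond both kinds, 37% had donor cells on the opposite side of fertilised embryos from NT.

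In 12 of the 92 genes (13%, against 5.09% of all genes) donor cells differed from fertilised embryos in the direction of NT and did not pass against NT. With 2 donor samples this does not show equal levels. The choice of genes for a shift of NT itself brings NT nearer to donor cells shifted the same way. The higher share is therefore a description. They were PSPH, POLR1H, PIP5K1A, SARS1, DDIT4, ANXA1, ATP6AP2, SLC25A6 and IL10RB among the higher genes and HMGA1, LGALS3 and EIF3CL among the lower ones, named here after their values were seen. PSPH was 2.56 ± 0.67 higher in donor cells than in fertilised embryos (adjusted p = 0.00184) and 0.37 ± 0.69 from NT (adjusted p = 0.738). HMGA1 was at -1.11 and -0.89 in donor cells and at a median of -0.43 in NT embryos. LGALS3 was at 1.59 and 1.48 in donor cells, within the NT range and below every fertilised embryo.

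In 19 genes (20.7%, against 13.9% of all genes past the threshold against NT in that direction) donor cells lay further out than NT, past the threshold against both. Among the rises were AGA, TXNIP, SOD1, GPX8 and the matrix genes SPARC and THBS1. GPX8 was -3.64 to -2.94 in NT embryos, -4.26 to -2.87 in fertilised ones and -0.79 and -0.16 in the donor cells, so the NT shift of 0.45 covered little of the distance to the donor level. The 11 falls were a mixed set. They held the epithelial genes OCLN (donor cells -2.11 and -2.36, NT 3.07 to 3.92) and MPZL2, and RBM47, a splicing regulator (donor cells -2.83 and -2.62, NT 0.79 to 2.10). The others were FOLR1, SNX10, ALDOA, SOD2, HSF1, SGK3, TOMM20 and TIMM23.

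In 12 genes donor cells differed from fertilised embryos in the direction opposite to NT. TFAP2A was at 2.20 and 1.53 in the donor cells, at or above the highest fertilised embryo, while it fell in NT. PPIC was at 1.70 and 1.80 in donor cells and at -3.62 to -1.94 in NT embryos. RPL19, RPL35, GPX4 and the integrin ITGB5 were likewise higher in donor cells and lower in NT. EIF4B and DDX51 were lower in donor cells and higher in NT.

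**Figure D5:**
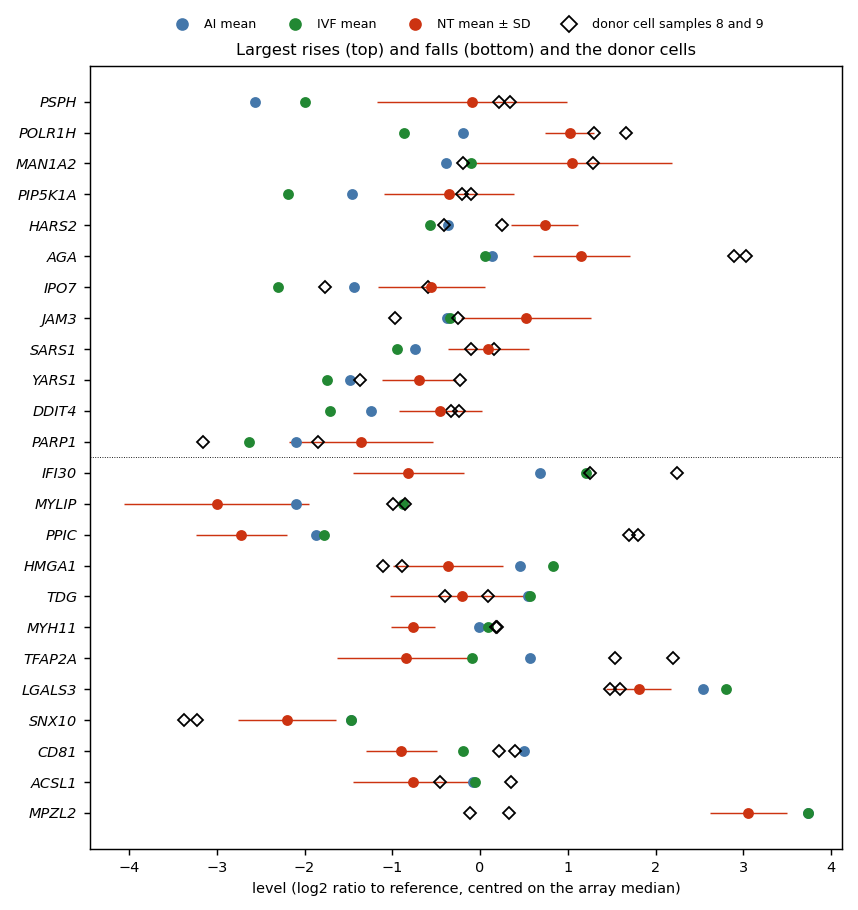
Mean levels in AI, IVF and NT embryos (NT with SD) and the values of donor cell samples 8 and 9 for the 12 largest rises (top) and the 12 largest falls (bottom) beyond both, on the log2 ratio scale. Donor cells sit near or past NT for PSPH, POLR1H and PIP5K1A, far past NT for AGA and MPZL2, and on the opposite side for PPIC, TFAP2A and IFI30.

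Of 30 fibroblast and matrix genes, listed as donor cell markers with earlier results of these data known, 17 were higher and 2 lower in donor cells than in fertilised embryos. The others did not pass, so the list marks donor cells only in part. In NT 4 of the 30 rose (13.3%) and 3 fell (10%; all genes 7.19% and 5.75%), with a median of -0.0019 against 0.020 for all genes. Uncentred, 18 of the 30 rose and 1 fell, with a median of 0.40 against 0.42 for all genes. The mean level of the list was -1.57 to -1.13 in NT (median -1.34), against medians of -1.33 in AI and -1.33 in IVF and 0.522 and 0.595 in the donor cells. The 3 beyond both were SPARC (0.65 ± 0.18), THBS1 (0.41 ± 0.081) and ANXA1, an annexin (0.82 ± 0.17). SPARC is also made by primitive endoderm, and COL4A1, of the same basement membrane, fell by 0.49 ± 0.12. VIM (-0.022 ± 0.076) and COL1A2 (-0.036 ± 0.096), the defining genes, did not pass (adjusted p = 0.891 and 0.847), and with arrays as deposited both were higher by 0.38 and 0.36 and passed. MEIS2, CAV1 and S100A10 fell. SPARC and THBS1 lost a call with the sample in Cy3 alone and ANXA1 with either dye orientation alone. Markers of oocytes (1 measured), cumulus cells (3), uterine epithelium (1) and blood cells (9) held 0 genes past the threshold.

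NT embryos labelled 2_ and 3_ were compared with each other. The 92 genes had been chosen on both series pooled. By limma 0 of 4398 genes (0%) passed, 344 had an unadjusted p under 0.05, and the smallest adjusted p was 0.314. Of the 92 genes 8 were among the 344. Both label series had means beyond AI and IVF in all 92, which the choice of genes on these embryos largely fixes. TDG was 0.28 in embryos labelled 2_ and -0.76 in those labelled 3_, PARP1 was -0.88 and -1.90, and PIP5K1A was 0.017 and -0.78. For TDG and PARP1 the NT position thus rested more on 1 label series than on the other. With the 2_ embryos alone 217 genes passed and 48 lay beyond both, and with the 3_ embryos alone 235 and 60.

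Probes without a single gene symbol were also in the fit. Of 7992 probes 168 were beyond both kinds, 69 higher and 99 lower. Of the 2485 probes with no or several symbols 51 were (2.05%), 13 higher and 38 lower.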

How the data were processed

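The deposited values are log2 dye ratios per spot of 92 arrays, 2 per sample with dyes exchanged. Per the labels, RNA was amplified linearly in 3 rounds for samples and 2 for the reference, reverse transcribed and coupled to the dyes. Scanner, background correction, normalisation and ratio direction are not given in the sources used here, and without intensities background could not be examined. The number of arrays limits the precision.

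Cells above 16 (a fill value of 16.61, 2657 cells) were set missing, and 4.39% of cells were empty. Arrays carrying the sample in Cy3 had their sign turned, each array was centred on its median, the 2 spots of a probe were averaged, and then both arrays of a sample, each needed. Probes with a value in at least 50% of each kind and in both donor samples were kept (7992). Probes of 1 symbol were averaged into 4398 genes. Of 5598 such probes 5591 matched RefSeq by Entrez ID.

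A group-means model of all 46 samples was fitted with limma 3.58.1 in R 4.3.3 (eBayes, 2-sided), with Benjamini-Hochberg adjustment over all genes and a threshold of 0.05. A gene was beyond both when NT minus the mean of AI and IVF, NT minus AI and NT minus IVF each passed with 1 sign. The scripts were tested on simulated data. Genes named by rule were the 12 largest rises and 12 largest falls beyond both, by the smaller distance, up to 4 members beyond both of smallest p from each of 30 lists, and 10 single genes. Groups, genes and lists were chosen with earlier results of these data known. The lists were counted, not tested. Alternatives were other scalings, single dyes, filters, weights and subsets of embryos.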

Additional observations from a re-analysis of the deposited data

Results flagged for a closer look

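For 10 of the genes beyond both kinds of fertilised embryo and named by the rule, AI and IVF embryos also differed from each other, so that the distance of NT differed between the comparisons (limma, adjusted p from 0.00147 to 0.0374). IVF minus AI was 1.22 for MYLIP, 0.43 for RBM45 and 0.318 for GPX4, where NT, lower than both, was farther from IVF embryos. It was -0.73 for PIP5K1A, -0.869 for IPO7 and -0.551 for SLC25A6, where NT, higher than both, was again farther from IVF. For the genes lower in NT whose IVF level was below that of AI, NT was farther from AI: TFAP2A (-0.665), CD81 (-0.693), RPS7 (-0.348) and ITGB5 (-0.323). RBM45 only just passed against AI (limma, adjusted p = 0.0499) and stayed beyond both in 4 of 18 other settings.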

How the results depend on the processing

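No paired analysis was possible because NT labels share no numbers with AI or IVF labels. Alternatives added after seeing the data were a value from 1 array where the other is missing, leaving out IVF embryos 1 and 11, and the probe counts under other settings. Of 133 alternative counts 103 stayed within 1.5 times the main value. With arrays as deposited 2384 genes differed from the fertilised mean (2372 higher, 12 lower), 976 were beyond both (975 higher, 1 lower) and 3765 probes differed against 1037. Values of RPL35 (0.14), EIF3CL (0.017), PAG8 (0.047), OCLN (0.074), VIM (0.38) and COL1A2 (0.36) turned to positive there, because the shift of the median gene is kept. The sample in Cy5 alone gave 187 higher genes. The sample in Cy3 alone gave 329 genes (111 lower), 54 beyond both (13 lower) and 560 probes, and the cause was not tested. With fewer embryos, those labelled 2_ gave 217 genes (101 higher, 116 lower) and 48 beyond both (21 and 27), and those labelled 3_ gave 235 (135 and 100) and 60 (30 and 30). A random block for label series gave 367 genes (198 higher), 46 beyond both (22 and 24), at a within-series correlation of 0.0222. Leaving out a donor sample gave 23 donor calls against 31. For the 58 named genes, 1044 values of the difference from the fertilised mean were compared with the main ones. Of these, 968 stayed on the same side of the threshold, in the same direction where they passed it. A further 67 lost the call, 3 gained it and 6 turned. Whether a gene stayed beyond both kinds was not part of this count. In the main fit 52 of the 58 genes passed against that mean. With the random block all 52 kept this call, including those listed above as no longer beyond both, and the rest again did not pass. Single NT embryos were not left out in turn, as the group holds 15. Depth is unknown, and signal over background could not be examined.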
